A study of Mus musculus with 9 samples.

Results

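The lysosome genes described here are the rows of the deposited expression table that carry the KEGG lysosome pathway in their annotation and reached at least 1 FPKM (fragments per kilobase, corrected for the depth of the library) in 3 or more libraries. The table held 130 lysosome rows among 21959 genes. Of these, 100 met the level limit and 30 did not, 13 of them being listed at 0 in all 9 libraries. RNA had been sequenced from mouse mesenchymal stromal cells of bone marrow, a line that the labels mark SV40, after 24 h in 1 of 3 additions, with 3 libraries each. The TNBS PF group was kept with peritoneal interstitial fluid (PF) of mice given TNBS (a hapten that causes colitis when given to mice) for 3 days. The control PF group was kept with PF of control mice, and the PBS group with phosphate-buffered saline in place of fluid. All 3 groups were the same line and had 10% FBS in DMEM/F12 medium, so that none was free of serum. The labels give no strain or age for the fluid donors and do not say whether the 3 libraries of a group came from separate cultures or separate fluids. The p-values below therefore measure the spread between these libraries, which may be technical.

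Lysosomes are acidic organelles that break down material taken up by endocytosis, delivered by autophagy or recycled from membranes. Their soluble hydrolases are made in the endoplasmic reticulum, tagged with mannose 6-phosphate in the Golgi and carried by receptors, adaptor proteins and clathrin to endosomes. A proton pump acidifies the lumen, heavily glycosylated proteins line the membrane, and transporters export the products. The transcription factors TFEB, TFE3 and MITF bind an E-box, CACGTG and its extension TCACGTGA, in the promoters of many of these genes, and the kinase complex mTORC1 at the lysosome surface keeps TFEB in the cytoplasm. In stromal cells lysosomes also take part in the turnover of collagen and proteoglycans.

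Because the E-box is the sequence that many lysosome promoters share, promoter windows of RefSeq on GRCm38.p6 were searched for it, each running from 250 bases before to 50 after a gene's start. A window was found for 80 of the 100 genes. Searched were CACGTG, TCACGTGA and TCACGTGA with a G before and a C after it. The 3 motifs read the same on both strands and lie within each other, so that each longer match also counts as a CACGTG. TCACGTGA was in a window of 10 of the 80 lysosome genes (12.5%), against 204 of the 8449 tested genes with a window (2.41%) and 304 of all 27025 genes with one (1.12%). The longest of the 3 was in 2 of the 80 (2.5%), against 0.876% of the tested and 0.37% of all genes. CACGTG was in 22 of the 80 (27.5%), against 12.1% of the tested and 8.09% of all genes. The 10 genes with TCACGTGA were Atp6v0d1, Cd164, Cln3, Ctsa, Ctsd, Gla, Gnptg, Igf2r, Mcoln1 and Sumf1. Stretches of 60 bases, 5′ to 3′ along each gene, follow for those of them whose expression is described in full further on and whose match lies wholly before the RefSeq start. The stretches of Ctsa and Ctsd, and part of that of Mcoln1, lie inside the gene's span in the GENCODE M21 annotation. For 73 of the 80 genes, bases after the RefSeq start were found in a GENCODE transcript of the gene. Lamp1 is added because its window held 4 copies of CACGTG and none of TCACGTGA. Capitals mark the motif: TCACGTGA in the first 5 and CACGTG in Lamp1.
Ctsa, chr2:164833713-164833772, plus strand: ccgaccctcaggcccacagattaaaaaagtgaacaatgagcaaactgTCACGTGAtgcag
Ctsd, chr7:142387893-142387952, minus strand: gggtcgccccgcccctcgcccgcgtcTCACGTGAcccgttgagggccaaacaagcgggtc
Igf2r, chr17:12769707-12769766, minus strand: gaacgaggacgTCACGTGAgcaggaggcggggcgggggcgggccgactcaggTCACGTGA
Mcoln1, chr8:3500447-3500506, plus strand: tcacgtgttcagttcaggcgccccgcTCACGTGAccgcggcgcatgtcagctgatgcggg
Sumf1, chr6:108185584-108185643, minus strand: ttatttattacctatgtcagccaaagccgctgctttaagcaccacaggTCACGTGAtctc
Lamp1, chr8:13159096-13159155, plus strand: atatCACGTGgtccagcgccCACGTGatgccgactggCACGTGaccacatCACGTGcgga

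**Figure D1:**
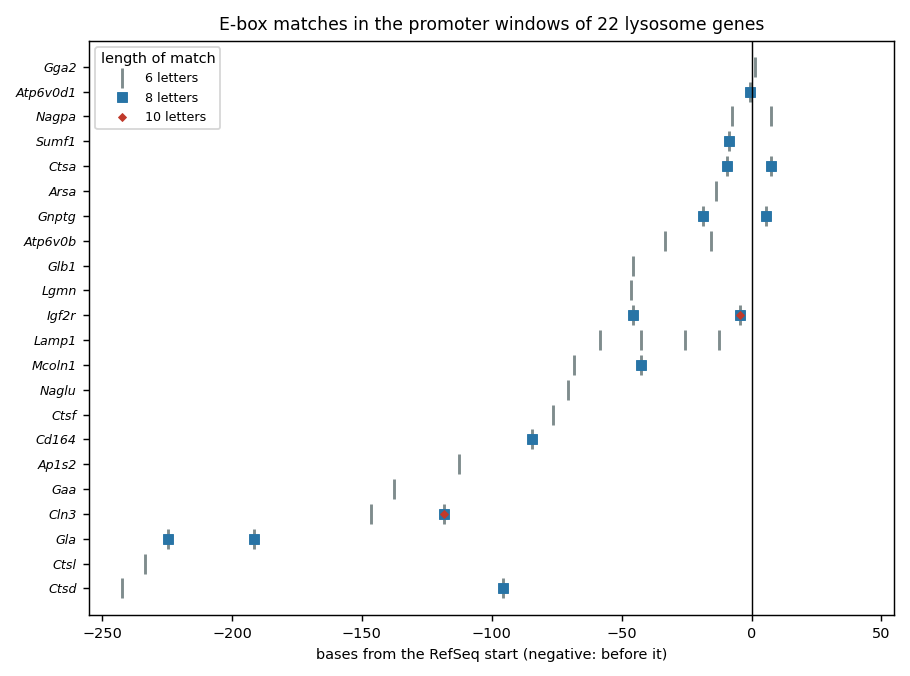
Position of each E-box match in the promoter windows of the 22 lysosome genes that hold CACGTG, in bases from the RefSeq start (negative values lie before it). Grey ticks mark matches of 6 letters, blue squares TCACGTGA and red diamonds TCACGTGA with a G before and a C after it. Lamp1 has 4 matches before its start, and Atp6v0d1 has a TCACGTGA that spans it.

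The 100 genes covered a wide range of levels. Their mean FPKM over the 9 libraries had a median of 14.5, against 8.65 for all 10537 tested genes. Psap, the precursor of the 4 saposins that help break down sphingolipids, was the highest at 579.75 FPKM and made up 17.4 to 18.8% of the summed lysosome FPKM. At the limit, Cln3 was just inside with at least 1 FPKM in 4 libraries and a mean of 0.968 FPKM, and all the other 99 reached 1 FPKM in all 9 libraries. Sort1, a sorting receptor with 1 library above the limit and a mean of 0.84 FPKM, was just outside, followed by Sgsh at 0.789 FPKM. Rows at or near 0 included genes known from macrophages or osteoclasts: Ctss at a mean of 0.0148 FPKM, Laptm5 at 0.00699 FPKM, Slc11a1 at 0.0995 FPKM, Acp5 at 0.257 FPKM and Atp6v0d2 at 0 in all 9 libraries. Entpd4 was listed at 0 and its near-identical copy Entpd4b at a mean of 0.0501 FPKM, so reads of this pair may have been split or dropped.

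The markers of the labelled cell type were expressed: all 10 stromal markers (Pdgfra, Pdgfrb, Col1a1, Col1a2, Thy1, Eng, Nt5e, Ly6a, Cd44 and Vcam1) had a mean of at least 2.52 FPKM. Assigned fragments in M (mega), recovered from the deposited values, were 22.9 to 25.6 M in TNBS PF, 18.6 to 21.5 M in control PF and 17.9 to 20.3 M in PBS, so TNBS PF was the deepest group. Correlations of log2(FPKM + 1) between libraries were 0.9963 to 0.9979 within groups and 0.9938 to 0.9963 between groups. Each difference below comes from 1 limma fit of log2(FPKM + 1) over all 9 libraries and the 10537 tested genes, and a gene is said to rise or fall where its Benjamini-Hochberg adjusted p was under 0.05. Fold changes on this scale understate the change of low genes. In bulk RNA fewer cells of a type and less RNA per cell cannot be told apart.

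By their median, lysosome genes were slightly lower in TNBS PF than in either other group, and those that passed the test against control PF all fell. Against control PF, 10 of the 100 genes passed the limma test, 0 higher and 10 lower, where 10.6% of all tested genes passed in either direction, 5.45% lower and 5.15% higher. The share that passed was thus close to the background, and 10% lower stands beside 5.45% lower. The genes that fell were Ctsd, Ctsa, Lipa, Lamp2, Psap, Tpp1, Arsa, Ap3b1, Ctsb and Ap1g1. With median-ratio scaling, 1 lysosome gene rose (M6pr) and 8 fell. The median log2 fold change of the 100 genes was -0.07, against -0.01 for all tested genes, and 82 of the 100 had a negative value, against 55.7% of all tested genes. All 3 TNBS PF libraries lay below all 3 control PF libraries in 39 lysosome genes (18.2% of all tested genes did so), and above them in 4 (13.6% of all tested genes). Of the 10 falls, those of Ctsd, Ctsa and Lipa held in all 18 alternative analyses. The count was 5 without TNBS PF 1, without TNBS PF 2 or without control PF 2, against 10 with all libraries.

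Against PBS more lysosome genes passed. Of the 100 genes, 25 passed the limma test, 2 higher and 23 lower, where 16.7% of all tested genes passed in either direction, 8.88% lower and 7.8% higher. Their median log2 fold change was -0.09, against -0.01 for all tested genes, and 81 of the 100 were negative, against 53.9% of all tested genes. The TNBS PF libraries lay wholly below the PBS libraries in 44 lysosome genes (19.7% of all tested genes) and wholly above in 7 (15.5% of all tested genes). In 15 of the 25 the call held in all 18 alternatives, namely Lamp2, Ctsa, Ap3b1, Tpp1, Lipa, Lamp1, Dnase2a, Ctsd, Ap1s1, Psap, Igf2r, Ctsf, Ctsk, Ap1g1 and Ctso. The comparison with PBS and the comparison with control PF share the TNBS PF libraries, so a value in one is not independent of the other.

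Few lysosome genes passed between control PF and PBS. Lamp2 was the 1 of 100 genes that passed, and it was lower in control PF, where 2.15% of all tested genes passed in either direction, 1.14% lower and 1.02% higher. At an unadjusted p under 0.05 in limma, 5 lysosome genes were higher and 18 lower in control PF than in PBS, where 8.4% of all tested genes were higher and 7.19% lower. The median log2 fold change was -0.02, against 0.00095 for all tested genes, with 62 of 100 negative, against 49.5% of all tested genes. Groups did not overlap in 18 genes lower in control PF (9.32% of all tested genes) and in 9 higher (9.33% of all tested genes).

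**Figure D2:**
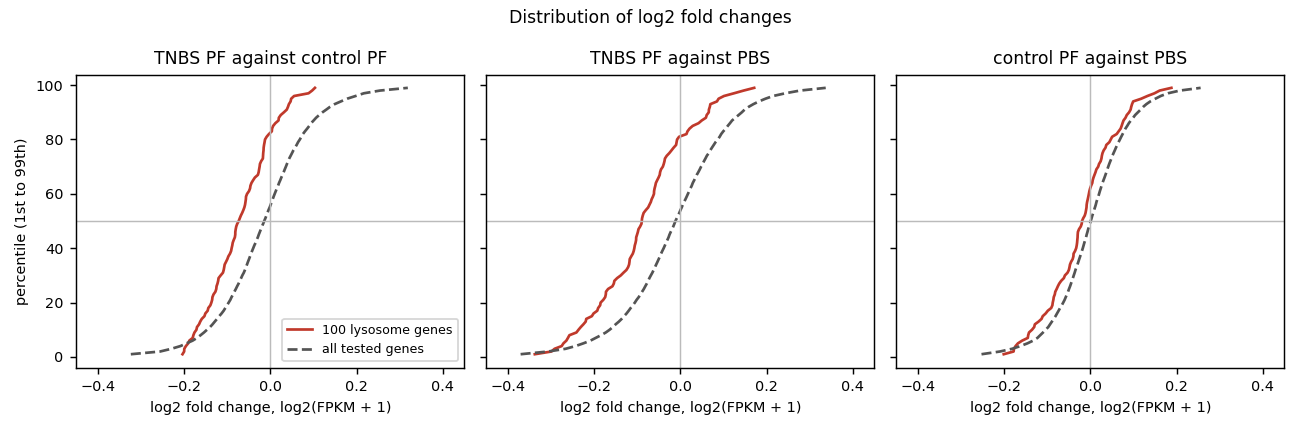
Percentiles, from the 1st to the 99th, of the log2 fold change on the log2(FPKM + 1) scale for the 100 lysosome genes (solid red) and all 10537 tested genes (dashed) in each comparison. The red line lies left of the dashed one over most of its length in both TNBS PF panels, with medians of -0.07 and -0.09, and the 2 lines lie closer in the panel of control PF against PBS.

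The order of the groups was also read from the means. The lowest of the 3 group means was that of TNBS PF in 74 of the 100 lysosome genes, against 43.4% of all tested genes. The highest was that of PBS in 59 lysosome genes, against 35.1% of all tested genes. Over the 100 genes FPKM summed to 3019, 3003 and 3024 for TNBS PF, 3176, 3196 and 3159.8 for control PF, and 3234, 3225 and 3191 for PBS. The TNBS PF libraries were the 3 lowest. Group means were 3016 ± 11.2 FPKM in TNBS PF, 3177 ± 18.2 FPKM in control PF and 3217 ± 22.4 FPKM in PBS (SD, n = 3 each). As a share of all FPKM this averaged 1.11% for TNBS PF, 1.17% for control PF and 1.2% for PBS. Without Psap the sums were 2448 to 2495 FPKM in TNBS PF, 2571 to 2594 FPKM in control PF and 2592 to 2625 FPKM in PBS. The sum, in which a few high genes weigh most, is given as a description without a test.

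**Figure D3:**
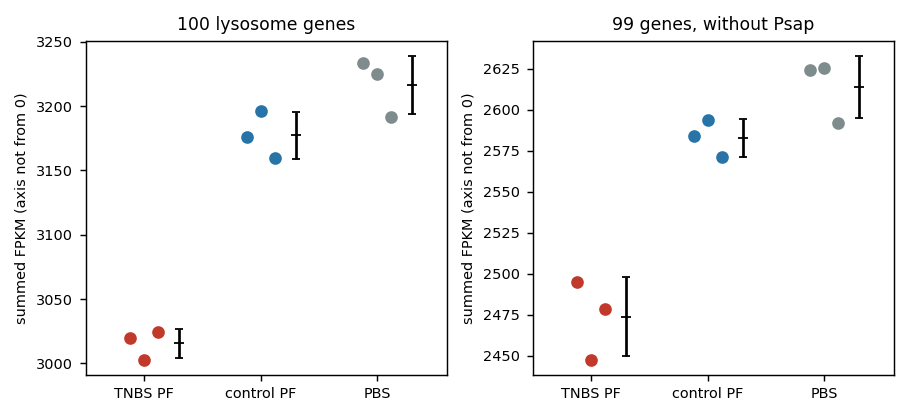
Summed FPKM of the lysosome genes in each library (points), with the mean and SD of the 3 libraries of a group beside them, for all 100 genes (left) and for 99 without Psap (right). The vertical axes do not start at 0. The TNBS PF libraries lie below those of control PF and PBS in both panels.

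Proteases of the lumen had the largest share of falls among the 9 roles, both against control PF and against PBS. Beside the counts of each role stand the shares of all tested genes that passed. These were 5.45% lower and 5.15% higher against control PF, and 8.88% lower and 7.8% higher against PBS. Of 12 proteases, 4 (33.3%) fell and 0 rose against control PF, with a median log2 fold change of -0.12. Against PBS 6 proteases (50%) fell and 1 (8.33%) rose, with a median of -0.12. Ctsd, the main aspartic protease of lysosomes (chr7:142375911-142388038, GRCm38), measured 44.1, 43.3 and 45.2 FPKM in TNBS PF, against 50.8, 48.8 and 50.7 FPKM in control PF and 51.3, 50.2 and 48.4 FPKM in PBS. The 3 TNBS PF libraries were the lowest and did not overlap with either other group, which overlapped with each other. The log2 fold change was -0.18 ± 0.0324 (SE) against control PF with an adjusted p of 0.00376 (limma), and -0.17 against PBS with an adjusted p of 0.003. Ctsd shares 34.4% of its exon length with Gm49369 on the same strand, a gene listed at 0 in all 9 libraries. Ctsa, a carboxypeptidase that also protects beta-galactosidase and neuraminidase (chr2:164832873-164841032), measured 22.8, 23.7 and 23.9 FPKM in TNBS PF, against 27.7, 28.2 and 25.7 FPKM in control PF and 29.0, 29.1 and 28.8 FPKM in PBS. The groups were in that order with no overlap. Its log2 fold change was -0.20 ± 0.0384 (SE) against control PF with an adjusted p of 0.00479 (limma), and -0.29 against PBS with an adjusted p of 0.000287. Exons of Neurl2 and Pltp on the opposite strand cover 17.4% of its exon length, and Pltp did not pass against control PF at a log2 fold change of -0.06.

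Tpp1, a peptidase that removes tripeptides from protein ends, measured 20.2, 21.6 and 21.8 FPKM in TNBS PF, against 25.2, 23.7 and 23.4 FPKM in control PF and 25.04, 26.3 and 25.6 FPKM in PBS. Its TNBS PF libraries were below all others, at a log2 fold change of -0.18 against control PF with an adjusted p of 0.0144 (limma), and -0.26 against PBS with an adjusted p of 0.000884. The call against control PF was lost without TNBS PF 1 (adjusted p 0.0684, limma) and without control PF 1 (0.0575). Ctsb, a cysteine protease, averaged 87.2 ± 1.97 FPKM in TNBS PF, 94.0 ± 1.74 FPKM in control PF and 91.0 ± 1 FPKM in PBS (SD, n = 3 each). It fell against control PF, at a log2 fold change of -0.11 with an adjusted p of 0.0277 (limma), and did not pass against PBS at -0.06. That call was lost in 7 of the 18 alternatives, with median-ratio scaling, with the replicate block and without TNBS PF 1, TNBS PF 2, control PF 1, control PF 2 or control PF 3 (adjusted p 0.0522 to 0.11, limma). Fdft1, on the opposite strand and sharing 12.8% of the exon length of Ctsb, averaged 36.1 FPKM in TNBS PF, 42.3 FPKM in control PF and 41.5 FPKM in PBS, and also fell against control PF (log2 fold change -0.22, adjusted p 0.00189, limma). Since no source used here gives the strand of the libraries, reads from such overlapping exons cannot be told apart, and the part of Fdft1 in the value of Ctsb was not tested. Among falls described below, exons on the opposite strand also cover 30% of the exon length of Dnase2a (Mast1) and 18.8% of Arsa (C230037L18Rik). For Ap1g1 the share is 18.7% (Gm17344) and for Lamp1 9.31% (Grtp1). Mast1 averaged 0.0539 FPKM and Grtp1 1.56 FPKM over the 9 libraries.

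Among the lower proteases, Ctsk, a collagen-degrading cysteine protease best known from osteoclasts, averaged 12.8 ± 1.03 FPKM in TNBS PF, 14.0 ± 0.602 FPKM in control PF and 16.0 ± 1.17 FPKM in PBS (SD, n = 3 each). It fell against PBS by 0.30 on the log2 scale with an adjusted p of 0.0055 (limma). Ctsf measured 1.52, 1.4 and 1.81 FPKM in TNBS PF, against 1.92, 1.81 and 2.06 FPKM in control PF and 2.49, 2.67 and 2.07 FPKM in PBS. This cysteine protease had the most negative log2 fold change of the 100 genes against PBS, -0.40, with an adjusted p of 0.00498 (limma). Ctso, another cysteine protease, fell against PBS by 0.26 with an adjusted p of 0.00638 (limma), at 3.48 FPKM in TNBS PF and 4.38 FPKM in PBS. Ctsc, a dipeptidyl peptidase that activates serine proteases of immune cells, went the other way. It averaged 3.41 FPKM in TNBS PF, 3.44 FPKM in control PF and 2.82 FPKM in PBS, and rose against PBS by 0.20 with an adjusted p of 0.0429 (limma). That rise was lost in 9 of the 18 alternatives, among them the fits without TNBS PF 2, TNBS PF 3, control PF 2, PBS 2 or PBS 3 (adjusted p up to 0.163). The highest proteases did not pass in any comparison: Ctsl, at 119 FPKM in TNBS PF, 121 FPKM in control PF and 118 FPKM in PBS, and Ctsz, at 109.65 FPKM in TNBS PF, 107 FPKM in control PF and 105 FPKM in PBS.

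**Figure D4:**
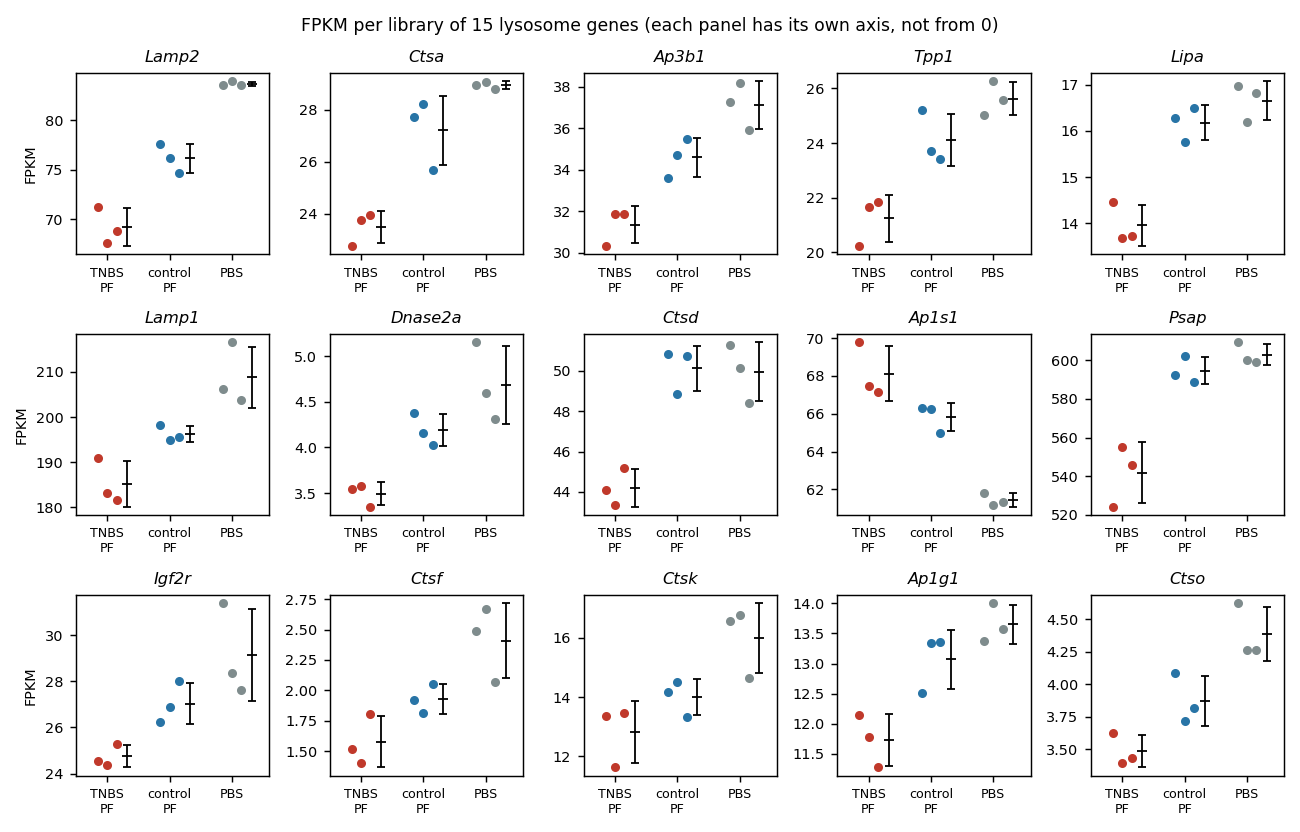
FPKM of each library for the 15 lysosome genes whose difference between TNBS PF and PBS held in all 18 alternatives, with the mean and SD of each group of 3 beside the points. Each panel has its own axis, which does not start at 0. Ap1s1 is higher in TNBS PF than in PBS, and the other 14 are lower.

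Glycosidases, which remove sugars from glycolipids, glycoproteins and glycosaminoglycans, were grouped with other glycosaminoglycan enzymes in 1 role. Its 20 genes, not all of them glycosidases, showed 0 calls against control PF. Against PBS 3 of them (15%) fell, where 8.88% of all tested genes did. The median log2 fold change of the 20 genes was -0.08 against control PF and -0.11 against PBS. Aga, which cleaves the sugar from asparagine, averaged 14.8 FPKM in TNBS PF, 15.7 FPKM in control PF and 17.0 FPKM in PBS, and fell against PBS by 0.18 with an adjusted p of 0.0132 (limma). Neu1, a sialidase, averaged 2.68 FPKM in TNBS PF, 3.11 FPKM in control PF and 3.45 FPKM in PBS, and fell against PBS by 0.27 with an adjusted p of 0.0424 (limma), although its libraries overlapped between all groups. The fall of Aga was lost without TNBS PF 1 or TNBS PF 2 (adjusted p up to 0.0565, limma). That of Neu1 was lost in 10 of the 18 alternatives (adjusted p up to 0.149, limma): with no filter on low values, median-ratio scaling, quantile normalization, only those groups or the replicate block, and without TNBS PF 1, TNBS PF 3, control PF 2, PBS 1 or PBS 2. Hexa, which acts on ganglioside, averaged 33.9 FPKM in TNBS PF, 34.4 FPKM in control PF and 37.6 FPKM in PBS and did not pass in any comparison.

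The sulfatases and their activator Sumf1 numbered 6. Of these, 1 (16.7%) fell against control PF and 1 (16.7%) against PBS, where 5.45% and 8.88% of all tested genes did. Arsa, the arylsulfatase that acts on sulfatide, measured 11.2, 10.5 and 10.9 FPKM in TNBS PF, against 12.7, 12.4 and 12.1 FPKM in control PF and 11.8, 11.7 and 12.3 FPKM in PBS. It fell against control PF at a log2 fold change of -0.17 with an adjusted p of 0.0177 (limma) and did not pass against PBS (-0.12, adjusted p 0.0571). The call was lost without TNBS PF 2, TNBS PF 3, control PF 1 or control PF 2 (adjusted p 0.0526 to 0.0812, limma). Sumf1, which activates all sulfatases by modifying a cysteine in them, averaged 11.9 FPKM in TNBS PF, 12.4 FPKM in control PF and 13.6 FPKM in PBS. It fell against PBS by 0.18 with an adjusted p of 0.0309 (limma), a call that was lost in 6 of the 18 alternatives, among them the fits without TNBS PF 2, TNBS PF 3, PBS 1 or PBS 2. Ids, which removes sulfate from glycosaminoglycans and was the highest of the group, averaged 23.2 FPKM in TNBS PF, 24.9 FPKM in control PF and 24.7 FPKM in PBS and did not pass in any comparison.

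Lipid enzymes, sphingolipid activators and other hydrolases numbered 10, of which 2 (20%) fell against control PF and 4 (40%) against PBS. The shares of all tested genes that fell were 5.45% and 8.88%. Medians of the 10 genes were -0.08 and -0.11 on the log2 scale. Psap (chr10:60277627-60302597) measured 524, 555 and 546 FPKM in TNBS PF, against 592, 602 and 589 FPKM in control PF and 609, 600.0 and 599 FPKM in PBS. The TNBS PF libraries lay below all others, and the fall was -0.13 ± 0.0291 (SE) against control PF with an adjusted p of 0.0105 (limma) and -0.15 against PBS with an adjusted p of 0.00318. Against control PF the call was lost without TNBS PF 1 (adjusted p 0.0577, limma) and without control PF 2 (0.0561). Lipa, the acid lipase that frees cholesterol and fatty acids from lipoprotein lipid (chr19:34492318-34527474), measured 14.5, 13.7 and 13.7 FPKM in TNBS PF, against 16.3, 15.8 and 16.5 FPKM in control PF and 17.0, 16.2 and 16.8 FPKM in PBS. Again TNBS PF stood below both other groups, which overlapped. Lipa fell at a log2 fold change of -0.20 ± 0.0386 (SE) against control PF with an adjusted p of 0.00553 (limma), and -0.24 against PBS with an adjusted p of 0.00114. Dnase2a, which degrades DNA in lysosomes, averaged 3.49 ± 0.124 FPKM in TNBS PF, 4.19 ± 0.177 FPKM in control PF and 4.68 ± 0.429 FPKM in PBS (SD, n = 3 each). It fell against PBS by 0.34 with an adjusted p of 0.00289 (limma) and narrowly missed the threshold against control PF (-0.21, adjusted p 0.0515). Gm2a, the activator that presents ganglioside to its enzyme, fell against PBS by 0.20 with an adjusted p of 0.0198 (limma), at 9.57 FPKM in TNBS PF and 11.2 FPKM in PBS, and lost the call without TNBS PF 3 or PBS 3. Asah1, the acid ceramidase, did not pass in any comparison at 107 FPKM in TNBS PF, 109.8 FPKM in control PF and 110.5 FPKM in PBS.

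The proton pump gave 0 calls against control PF among 8 subunits, and 1 fall (12.5%) against PBS, where 8.88% of all tested genes fell. The median log2 fold change of the 8 subunits was -0.10 in both. Atp6v0d1, a subunit of the membrane sector, measured 26.1, 25.7 and 25.04 FPKM in TNBS PF, against 28.2, 29.5 and 28.0 FPKM in control PF and 30.8, 32.6 and 26.8 FPKM in PBS. It fell against PBS by 0.22 with an adjusted p of 0.018 (limma), and the call was lost with no filter on low values and without TNBS PF 3, PBS 1 or PBS 2. Atp6ap1, an accessory subunit, averaged 60.5 FPKM in TNBS PF, 60.9 FPKM in control PF and 64.5 FPKM in PBS, and Tcirg1, the membrane subunit that osteoclasts use, 21.5, 22.9 and 23.2 FPKM in the same order of groups. Neither passed. Outside the KEGG set, 10 further pump subunits were tested, of which 1 fell against control PF (5.45% of all tested genes) and 2 against PBS (8.88% of all tested genes). Atp6v1a, the catalytic subunit, fell against control PF (-0.14, adjusted p 0.0198, limma) and against PBS (-0.19, adjusted p 0.00258), and Atp6v1b2 fell against PBS (-0.25, adjusted p 0.00366). Atp6v1a lost the call against control PF without TNBS PF 1, TNBS PF 3, control PF 2 or control PF 3 (adjusted p up to 0.0863, limma).

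Membrane glycoproteins numbered 8, with 1 fall (12.5%) against control PF and 3 (37.5%) against PBS, where 5.45% and 8.88% of all tested genes fell. Lamp2, a main protein of the lysosomal membrane with a splice form that serves chaperone-mediated autophagy (chrX:38401357-38456454), was the gene that passed in all 3 comparisons. It measured 71.3, 67.5 and 68.8 FPKM in TNBS PF, against 77.6, 76.2 and 74.7 FPKM in control PF and 83.6, 83.9 and 83.5 FPKM in PBS. No library of a group overlapped with another group. The log2 fold change was -0.14 ± 0.0291 (SE) for TNBS PF against control PF with an adjusted p of 0.00961 (limma), -0.27 for TNBS PF against PBS with an adjusted p of 5.66e-05, and -0.13 for control PF against PBS with an adjusted p of 0.0305. Without TNBS PF 2 the adjusted p against control PF was 0.0509 (limma). The call of control PF against PBS was lost in 8 of the 18 alternatives, among them the fits without control PF 1, control PF 2, control PF 3, PBS 1 or PBS 3, over a range of adjusted p from 0.00249 to 0.108 (limma). Lamp1, another membrane glycoprotein, again had no overlap between groups. It averaged 185 ± 5 FPKM in TNBS PF, 196 ± 1.81 FPKM in control PF and 209 ± 6.79 FPKM in PBS (SD, n = 3 each). It fell against PBS by 0.17 with an adjusted p of 0.0024 (limma) and did not pass against control PF (-0.08, adjusted p 0.106). Cd63, a tetraspanin of late endosomes and secreted vesicles, averaged 159 FPKM in TNBS PF, 166 FPKM in control PF and 171 FPKM in PBS. Its fall of 0.10 against PBS, with an adjusted p of 0.0367 (limma), was lost in 9 of the 18 alternatives, among them the fits without TNBS PF 2, TNBS PF 3, control PF 2, PBS 2 or PBS 3.

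**Figure D5:**
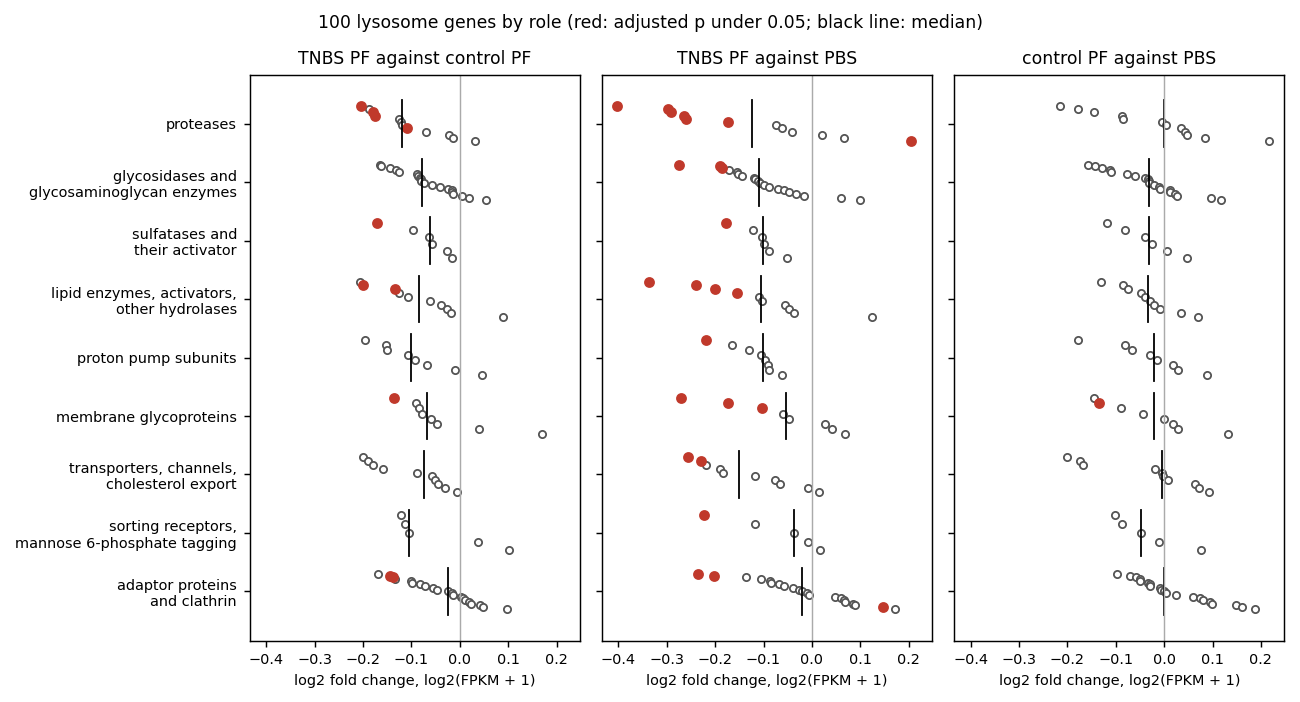
Log2 fold change on the log2(FPKM + 1) scale of each of the 100 lysosome genes, in rows by role, for the 3 comparisons. Filled red points passed the limma test, open points did not, and black lines are medians. All filled points are left of 0 for TNBS PF against control PF, and 23 of 25 are for TNBS PF against PBS.

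Of 10 transporters, channels and cholesterol export proteins, 0 passed against control PF, although all 10 had negative log2 fold changes with a median of -0.07. Against PBS 2 (20%) fell, with a median of -0.15 for the 10 genes, and 8.88% of all tested genes fell. Mcoln1, a calcium channel of the lysosomal membrane, measured 3.75, 3.59 and 3.45 FPKM in TNBS PF, against 3.68, 4.1 and 3.9 FPKM in control PF and 4.9, 4.16 and 4.44 FPKM in PBS. TNBS PF lay below PBS and overlapped with control PF. Mcoln1 fell against PBS by 0.26 with an adjusted p of 0.0137 (limma), and the call was lost without TNBS PF 3 or PBS 1. Ctns, the cystine exporter, fell against PBS by 0.23 with an adjusted p of 0.0407 (limma), at 4.45 FPKM in TNBS PF and 5.4 FPKM in PBS, and lost the call in 9 of the 18 alternatives, among them the fits without TNBS PF 1, TNBS PF 3, control PF 3, PBS 1 or PBS 3. Npc1 and Npc2 hand cholesterol out of the lysosome. Npc1 averaged 3.08 FPKM in TNBS PF, 3.62 FPKM in control PF and 3.65 FPKM in PBS, and its differences from TNBS PF missed the threshold (adjusted p 0.0754 and 0.0511, limma). Npc2 averaged 72.6 FPKM in TNBS PF, 75.3 FPKM in control PF and 72.0 FPKM in PBS and did not pass. Slc11a2, which moves iron out of endosomes, had log2 fold changes between -0.01 and 0.00 in the 3 comparisons.

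The 5 genes of sorting receptors and mannose 6-phosphate tagging gave 0 calls against control PF. Against PBS 1 (20%) fell, where 8.88% of all tested genes did. Igf2r, the large mannose 6-phosphate receptor that also clears IGF2, measured 24.6, 24.4 and 25.3 FPKM in TNBS PF, against 26.2, 26.9 and 28.0 FPKM in control PF and 31.4, 28.3 and 27.6 FPKM in PBS. TNBS PF lay below both other groups. Igf2r fell against PBS by 0.22 with an adjusted p of 0.00463 (limma) and did not pass against control PF (-0.12, adjusted p 0.106). M6pr, the small mannose 6-phosphate receptor, measured 46.5, 45.5 and 45.8 FPKM in TNBS PF, against 41.6, 43.4 and 43.1 FPKM in control PF and 43.9, 45.8 and 46.7 FPKM in PBS. Its TNBS PF libraries were above those of control PF and overlapped with PBS, and the difference of 0.10 from control PF missed the threshold (adjusted p 0.0592, limma). It passed with median-ratio scaling at an adjusted p of 0.0317 (limma). Gnptab, which carries the tagging enzyme's catalytic part, averaged 14.7 FPKM in TNBS PF, 15.9 FPKM in control PF and 15.1 FPKM in PBS and did not pass.

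Adaptor proteins and clathrin, the 21 genes that form the coats of transport vesicles, had a median log2 fold change near that of all genes, -0.02 against control PF and -0.02 against PBS. Against control PF 2 (9.52%) fell, where 5.45% of all tested genes did. Against PBS 2 (9.52%) fell and 1 (4.76%) rose, where 8.88% and 7.8% of all tested genes did. The share of falls against PBS was thus close to that of all tested genes. Ap3b1, a subunit of the AP-3 adaptor that sends membrane proteins to lysosomes, measured 30.3, 31.9 and 31.9 FPKM in TNBS PF, against 33.6, 34.7 and 35.5 FPKM in control PF and 37.2, 38.2 and 35.9 FPKM in PBS. The 3 groups did not overlap. Ap3b1 fell against control PF at -0.14 with an adjusted p of 0.0265 (limma), and against PBS at -0.24 with an adjusted p of 0.000721. The first call was lost without TNBS PF 1, TNBS PF 2, TNBS PF 3, control PF 2 or control PF 3 (adjusted p up to 0.106, limma). Ap1g1 and Ap1s1 are subunits of the same adaptor, AP-1, which carries cargo between Golgi and endosomes. Ap1g1 averaged 11.7 FPKM in TNBS PF, 13.1 FPKM in control PF and 13.7 FPKM in PBS, and fell against both (-0.14 with adjusted p 0.0472, and -0.20 with adjusted p 0.00602, limma). Its call against control PF was lost in 11 of the 18 alternatives, among them the fits without TNBS PF 1, TNBS PF 2, TNBS PF 3, control PF 2, control PF 3 or PBS 3. Ap1s1 measured 69.8, 67.4 and 67.1 FPKM in TNBS PF, against 66.3, 66.2 and 65.0 FPKM in control PF and 61.8, 61.2 and 61.3 FPKM in PBS. Its order was the reverse, TNBS PF highest and PBS lowest with no overlap, and it rose against PBS by 0.15 with an adjusted p of 0.00312 (limma). The clathrin chains Cltc and Clta, at 66.8 and 65.6 FPKM in TNBS PF, 69.6 and 66.2 FPKM in control PF, and 71.1 and 69.6 FPKM in PBS, did not pass in any comparison.

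Level and role gave further splits. Pooled as 48 genes were the proteases, the glycosidases and glycosaminoglycan enzymes, the sulfatases and their activator, and the lipid enzymes, sphingolipid activators and other hydrolases. Not all of them are hydrolases, since Psap and Gm2a give sphingolipid activators and Sumf1 activates sulfatases. The 48 genes held 7 of the 10 falls against control PF and 14 of the 23 against PBS, which was 14.6% and 29.2% of the 48. Psap was in both counts, and Gm2a and Sumf1 were in that against PBS. The other 52 genes held 3 (5.77%) and 9 (17.3%), where 5.45% and 8.88% of all tested genes fell. Among the 50 genes at or above the median level, 8 (16%) fell against control PF and 13 (26%) against PBS. Among the 50 below it 2 (4%) and 10 (20%) fell. Against control PF the median log2 fold change was -0.07 at or above the median level and -0.08 below it. Of the 10 genes with a TCACGTGA in the promoter window, 2 fell against control PF (Ctsa and Ctsd) and 6 against PBS (Ctsa, Ctsd, Igf2r, Mcoln1, Sumf1 and Atp6v0d1), with a median of -0.20 against PBS. Of the 70 with a window and no TCACGTGA, 7 fell against control PF, and 15 fell and 2 rose against PBS, with a median of -0.09. The shares of all tested genes were 5.45% lower against control PF, and 8.88% lower and 7.8% higher against PBS. Of the 6 falls against PBS, those of Ctsa, Ctsd and Igf2r held in all 18 alternatives. Mcoln1 lost the call in 2, Atp6v0d1 in 4 and Sumf1 in 6 of them. The counts by motif describe which genes hold the letters and were not tested.

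Genes that act on lysosomes without being in the KEGG set were read from 5 lists. Beside their counts stand the shares of all tested genes that passed, 5.15% higher and 5.45% lower against control PF, and 7.8% higher and 8.88% lower against PBS. In the list of MiT transcription factors and mTORC1 at the lysosome, 2 of 26 (7.69%) rose and 0 fell against control PF, and 2 (7.69%) rose and 6 (23.1%) fell against PBS, so that the share of rises against PBS was close to that of all tested genes. Sesn2, which senses leucine upstream of mTORC1, averaged 11.01 ± 0.678 FPKM in TNBS PF, 8.89 ± 0.0638 FPKM in control PF and 9.06 ± 1.2 FPKM in PBS (SD, n = 3 each), and rose against control PF by 0.28 with an adjusted p of 0.0273 (limma). That call was lost in 6 of the 18 alternatives, among them the fits without TNBS PF 1, TNBS PF 2, control PF 1, control PF 2 or control PF 3. Rheb, the small GTPase that activates mTORC1, averaged 25.1 FPKM in TNBS PF, 21.2 FPKM in control PF and 21.8 FPKM in PBS and rose against both (0.24 with adjusted p 0.00255, and 0.19 with adjusted p 0.00601, limma). Tfeb averaged 1.42 FPKM in TNBS PF, 1.43 FPKM in control PF and 1.2 FPKM in PBS, and Tfe3 8.45, 8.34 and 8.38 FPKM in the same order of groups, and neither passed. Mitf averaged 2.33 FPKM in TNBS PF, 2.62 FPKM in control PF and 2.93 FPKM in PBS, and fell against PBS by 0.24 with an adjusted p of 0.0294 (limma), a call lost with no filter on low values, with quantile normalization and without TNBS PF 1, TNBS PF 2, PBS 1 or PBS 2. Fnip1, a partner of folliculin, fell against PBS by 0.28 with an adjusted p of 0.00312 (limma). Mtor and Lamtor1 did not pass.

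In the autophagy list 3 of 37 genes (8.11%) fell against control PF, where 5.45% of all tested genes fell, and 5 (13.5%) fell against PBS, where 8.88% did. In both comparisons 0 rose. Calcoco1, a receptor for autophagy of the endoplasmic reticulum, averaged 11.6 ± 0.2 FPKM in TNBS PF, 13.8 ± 0.371 FPKM in control PF and 14.1 ± 0.399 FPKM in PBS (SD, n = 3 each), at log2 fold changes of -0.23 with an adjusted p of 0.00211 (limma) and -0.26 with an adjusted p of 0.000712. Nbr1, a receptor for ubiquitinated cargo, fell by 0.17 against control PF with an adjusted p of 0.00939 (limma) and by 0.21 against PBS with an adjusted p of 0.00178. Map1lc3b, whose lipidated protein coats autophagosomes, averaged 20.01 FPKM in TNBS PF, 22.7 FPKM in control PF and 22.2 FPKM in PBS, and fell against both (-0.17 with adjusted p 0.00963, and -0.14 with adjusted p 0.0184, limma), the second call being lost without TNBS PF 1, TNBS PF 3 or PBS 2. The receptor Sqstm1 averaged 94.6 FPKM in TNBS PF, 94.3 FPKM in control PF and 99.5 FPKM in PBS and did not pass.

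Among 25 other lysosomal genes, 4 (16%) fell against control PF, and 7 (28%) fell and 1 (4%) rose against PBS, where 5.45%, 8.88% and 7.8% of all tested genes did so. Gpnmb, a glycoprotein of lysosomes and melanosomes, measured 7.37, 7.25 and 6.86 FPKM in TNBS PF, against 8.88, 8.77 and 9.05 FPKM in control PF and 9.87, 9.6 and 9.45 FPKM in PBS. The 3 groups did not overlap, and the log2 fold change was -0.28 against control PF with an adjusted p of 0.00132 (limma) and -0.38 against PBS with an adjusted p of 8.62e-05. Tmem106b, a membrane protein of late endosomes, fell against control PF by 0.15 with an adjusted p of 0.0043 (limma). Glmp, a membrane glycoprotein of lysosomes, fell against control PF by 0.17 with an adjusted p of 0.00824 (limma), and Grn, the progranulin precursor, by 0.13 with an adjusted p of 0.0307, a call lost with no filter on low values, with median-ratio scaling and without any one of the TNBS PF or control PF libraries (adjusted p up to 0.122, limma). In the list of tethering, fusion and positioning factors 1 of 26 (3.85%) fell against control PF, the GTPase Rab7b, and 2 (7.69%) against PBS, the tethering subunits Vps11 and Vps33a. These shares were below those of all tested genes, 5.45% and 8.88%. All 3 calls were lost with no filter on low values, those of Rab7b and Vps11 also with median-ratio scaling, and that of Rab7b with quantile normalization. They were also lost without some libraries: Rab7b without TNBS PF 1, TNBS PF 2, TNBS PF 3, control PF 1, control PF 2 or PBS 3, Vps11 without TNBS PF 1, TNBS PF 2, PBS 2 or PBS 3, and Vps33a without TNBS PF 2, TNBS PF 3, PBS 1 or PBS 2. Control PF against PBS gave 0 calls by limma in all 5 lists.

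Markers of other cell types were measured beside these results. Of 14 macrophage and monocyte markers 12 had a mean under 1 FPKM, with C1qa and C1qb at 0 in all 9 libraries and Ptprc at 0 in 8 of 9. Their summed level was 16.3 to 18.3 FPKM in TNBS PF, 15.3 to 17.4 FPKM in control PF and 14.6 to 15.9 FPKM in PBS, most of it from Cd14. Of the 2 tested ones, Cd14 rose in TNBS PF against PBS by 0.19 on the log2 scale, and Cd68 passed in no comparison. The 6 neutrophil and 6 lymphocyte markers summed to at most 0.269 and 0.111 FPKM in any library. Mesothelial markers, 7 of 10 under 1 FPKM, summed to 47.8 to 52.4 FPKM in TNBS PF, 40.4 to 41.7 FPKM in control PF and 42.5 to 44.6 FPKM in PBS, and all 3 tested ones rose in TNBS PF against both groups. Of 6 osteoclast markers 4 were under 1 FPKM. The list summed to 14.2 to 16.7 FPKM in TNBS PF, 16.4 to 17.2 FPKM in control PF and 19.4 to 20.9 FPKM in PBS. Most of it came from Ctsk, which is also a lysosome gene. The 2 tested ones, Ctsk and Mmp9, fell in TNBS PF against PBS, and Mmp9 also fell in control PF against PBS. Stromal markers summed to 944 to 975 FPKM in TNBS PF, 1040.3 to 1065 FPKM in control PF and 1067 to 1143 FPKM in PBS, most of it from Col1a1, Col1a2 and Ly6a. The 10 stromal genes did not move one way: relative to control PF, 2 were called higher and 4 lower, and relative to PBS 2 higher and 5 lower. The part of these shifts, and of the greater depth of the TNBS PF libraries, in the lower lysosome values was not tested.

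The authors' deposited table gives its own p-values for the same genes. In the authors' deposited table, 30 of the 100 lysosome genes had p under 0.05 for TNBS PF and control PF, 28 of them with a negative log2 fold change, against 22.2% of all tested genes and 9.99% negative. The authors' deposited table had 33 such genes for TNBS PF and PBS, 30 negative (25.1% of all tested genes, 11.4% negative), and 12 for control PF and PBS, 9 negative (9.39% of all tested genes, 4.64% negative). Those deposited log2 fold changes ran as TNBS PF over control PF, TNBS PF over PBS and control PF over PBS.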

How the data were processed

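The authors deposited 1 table of FPKM per gene and library, per the file headers, with group means, a log2 fold change and a p-value for each pair of groups computed by the authors. Reads were trimmed with cutadapt 1.15 and the build was mm10, per the submitters' processing notes. Not given in the sources used here are the aligner, the counting program, the strand and the authors' test. FPKM multiplied by GENCODE M21 exon lengths gave whole fragments within 0.01 for 97.2 to 97.3% of values under 1000 fragments, from which depth was taken (57 genes had no length).

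Differences were fitted in limma 3.58.1 (R 4.3.3) on log2(FPKM + 1) over all 9 libraries with a mean-variance trend, for the 10537 genes with at least 1 FPKM in 3 or more libraries. The p-values were adjusted by Benjamini and Hochberg over all of them, with a threshold of 0.05. The fit was also run on simulated data, with values drawn independently for each library. Many changes reported here were smaller than the smallest one simulated, so that run does not cover them. Log2 fold changes had a median standard error of 0.0545. Replicate numbers were not used as pairs. The 18 alternatives were 9 other settings and 9 fits that each left out 1 library. Gene positions are those of GENCODE M21 on GRCm38.

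The lysosome genes, the other lists and the markers were chosen with earlier results of these data known. Named lysosome genes are those past the threshold, the 2 highest of each role and 18 preset ones. Named genes of the other lists are up to 4 past the threshold per list and comparison, and 7 preset ones. Genes outside these rules (rows under the level limit, overlapping neighbours and genes named for a motif only) were chosen after their values were seen. Some genes that enter the counts are not reported by name here.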

Additional observations from a re-analysis of the deposited data

How the results depend on the processing

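Over the alternatives, the median log2 fold change of the 100 lysosome genes stayed negative in all 3 comparisons. For TNBS PF against PBS it was -0.071 with median-ratio scaling and -0.111 with TPM scaling. The count against control PF was 16 (1 higher) with only those groups in the fit and 18 (1 higher, 17 lower) with limma voom on recovered fragments, and median-ratio scaling gave 1 higher. Against PBS, the number of rises was 1 with no filter on low values, with TPM scaling and with only those groups in the fit. Control PF against PBS gave 0 lysosome genes with no filter (103 of all genes) and with only those groups, 2 lower with quantile normalization, and 3 (1 higher, 2 lower) with voom, which called 374 of all genes. Leaving out 1 library at a time gave 5 to 14 lysosome genes in TNBS PF against control PF (0 to 1 higher, 5 to 13 lower), 0 to 1 in control PF against PBS, and 18 to 26 in TNBS PF against PBS (1 to 2 higher, 17 to 24 lower). All genes ranged from 661 to 1255, 115 to 311 and 1148 to 1735 in these comparisons, and medians from -0.0881 to -0.0572, -0.0288 to -0.00598 and -0.0965 to -0.0737. The causes were not tested.

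The fit with a replicate block gave 9 lysosome genes in TNBS PF against control PF, 0 in control PF against PBS, and 22 (1 higher, 21 lower) in TNBS PF against PBS, of 906, 169 and 1537 genes in all. Deviations of the 9 same-numbered pairs of libraries correlated at -0.0978 to 0.0746, and the numbers were not taken as pairs.

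Limits: differences were small, mostly under 0.3 on the log2 scale, and the test rests on 3 libraries a group with 6 residual degrees of freedom. FPKM of 1 fragment in 1 kb was 0.0391 to 0.056, so depth limits mainly the genes near 1 FPKM, such as Cln3, Idua and Hyal1.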

Other observations

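Other KEGG pathways shared by lysosome genes split them further. Of the 100 genes, 29 carried no other KEGG pathway. The 13 genes that are also in glycosaminoglycan degradation had 0 calls by limma in all 3 comparisons. Their median log2 fold change was -0.02 in TNBS PF against control PF, where that of the 100 genes was -0.07. Against PBS it was -0.09, as for the 100 genes. Of the 9 also in sphingolipid metabolism, 2 fell and 0 rose in TNBS PF relative to control PF and 3 fell relative to PBS, with medians of -0.13 and -0.12. Of the 12 also in the phagosome pathway, 1 fell against control PF and 3 against PBS. The shares of all tested genes were 5.45% lower and 5.15% higher against control PF, and 8.88% lower and 7.8% higher against PBS.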
